A study of Mus musculus with 12 samples.

Results

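Immediate early genes are genes whose transcription starts within minutes of a signal at the cell surface and does not need new protein to be made first. The genes described here are the NR4A orphan nuclear receptors *Nr4a1*, *Nr4a2* and *Nr4a3*, the EGR zinc finger factors *Egr1*, *Egr2* and *Egr3*, the immediate early response genes *Ier2*, *Ier3* and *Ier5*, and *Btg2*. They were chosen by name from these families, with earlier results of these data known, and are 10 of the 24346 genes listed. Relatives such as *Egr4*, *Ier5l* and *Btg1* were left out and are described apart. All 10 were among the 11395 genes tested, those whose mean over the 12 libraries reached 0.5 FPKM, a level of fragments scaled by gene length and by library size. NR4A receptors bind DNA without a known natural ligand, and their level in the cell sets their activity. In T cells, *Nr4a1* follows signalling through the antigen receptor, and *Egr2* and *Egr3* are known for holding activation back. Group 2 innate lymphoid cells (ILC2s) have no antigen receptor and are activated in the lung by cytokines such as IL-33, which epithelial cells release when damaged.

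RNA was sequenced from lung ILC2s of WT and *Sema6d*-/- mice (labelled 6DKO), both labelled C57BL/6, after intranasal PBS or IL-33 for 3 days, with 3 libraries in each of the 4 groups. The knockout covered the whole body and not ILC2s alone, and the cells were sorted as CD45+ Lin- ST2+ Thy1.2+. The labels put the IL-33 dose at 50 ng, and the study's methods give another dose. They also name a SMART-Seq HT and Nextera library preparation, where the methods name a TruSeq Stranded mRNA kit. Age was not given per sample, and the labels do not say whether each library came from its own mouse, so the p-values measure the spread between these samples. By the study's methods, lungs were taken on the day after the last dose, and cells were isolated from the tissue and sorted. These genes respond within minutes, and the part of their levels that arose during this handling was not tested. The comparison of IL-33 with PBS asks how the genes differed in ILC2s sorted from an inflamed lung. That of the genotypes asks what loss of semaphorin 6D changed.

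*Sema6d*, the targeted gene, was still listed with RNA in the *Sema6d*-/- libraries. Under PBS it was at 27.5, 46.1 and 37.5 FPKM in WT cells and at 29.0, 22.9 and 19.8 FPKM in *Sema6d*-/- cells. After IL-33 it was at 19.7, 35.5 and 28.7 FPKM in WT cells and at 15.4, 13.6 and 13.8 FPKM in *Sema6d*-/- cells. The genotypes overlapped under PBS and did not overlap after IL-33, and which part of the gene was deleted is not given in the sources used here. All 13 ILC2 markers were above 0 in all 12 libraries and summed to between 5717 and 9152 FPKM, with *Id2* the most abundant in 11 libraries and *Areg* in *Sema6d*-/- PBS replicate 3.

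*Sema6d*-/- PBS replicate 2 stood apart from the other libraries. Its 5 NK cell or ILC1 markers summed to 756 FPKM, of which *Gzma* made up 653, against 0 to 40.2 FPKM in the other 11 libraries. None of the 5 was at 0 in this library, although NK1.1 was among the lineage markers that the sort removed. Of the 12 libraries it also held the highest *Lyz2* (112 FPKM), *Marco* (7.28), *Mrc1* (6.84), *Scgb1a1* (22.4), *Krt8* (19.5) and *Cldn5* (12.7), and the highest endothelial (23.1 FPKM) and fibroblast (4.51 FPKM) marker sums. Other members of these lists did not follow. At 0 were 6 of the 11 macrophage or monocyte, 3 of the 6 epithelial, 2 of the 5 endothelial and 4 of the 6 fibroblast markers. Its *Chil3* (51.1 FPKM) and *Epcam* (22.3 FPKM) were not the highest of the 12. The same library held *Egr2* at 98.2 FPKM and *Egr3* at 79.3 FPKM, the highest value of each in the 12 libraries. The changes of these 2 genes that use this library are therefore given with and without it, and the part of RNA from other cells in them was not tested. Among the 11 macrophage or monocyte markers, *Ccr2* was the most abundant on average and split by treatment, at 305 to 378 FPKM under PBS and 85.3 to 148 FPKM after IL-33. The summed level of the list overlapped, at 306 to 504 FPKM under PBS and 86.1 to 521 FPKM after IL-33. *Siglecf* was at 0 in 11 of the 12 libraries, and the highest sum, in *Sema6d*-/- IL-33 replicate 2, came with *Chil3* at 394 FPKM. T cell markers summed to 190 to 483 FPKM, of which *Cd3g* made up nearly all. The other marker lists summed to 5.48 to 12.9 FPKM for neutrophils, 0 to 26.9 for B cells, 1.32 to 23.1 for endothelial cells, 4.26 to 101 for epithelial cells and 0 to 4.51 for fibroblasts. The highest epithelial sum was that of *Sema6d*-/- IL-33 replicate 3, where *Sftpc* stood at 97.2 FPKM, with *Lyz2* at 57.9 and *Chil3* at 83.1. Of the IL-33 libraries it also held the highest *Nr4a1* and *Nr4a2*. The sum of the basophil, mast cell or eosinophil markers also split by treatment, as 7 of the 10 genes did. It was 42.9 to 90.1 FPKM under PBS and 18.2 to 41.5 FPKM after IL-33. *Cpa3* made up most of this sum in each library. *Mcpt8*, *Prg2* and *Epx* were at 0 in all 12 libraries, and *Fcer1a* in all but WT IL-33 replicate 2 (2.99 FPKM). *Ccr3* was at 0 to 1.57 FPKM under PBS and 0.40 to 1.95 FPKM after IL-33. *Epcam*, an epithelial marker, was at 16.4 to 54.0 FPKM under PBS and 0 to 8.71 FPKM after IL-33. *Cdh1*, of the same list, was at 0 to 6.78 FPKM under PBS and 2.72 to 6.35 FPKM after IL-33. *Sftpc* was at 0 in each PBS library and at 0 to 97.2 FPKM after IL-33. The epithelial sum overlapped, at 23.1 to 64.2 FPKM under PBS and 4.26 to 101 FPKM after IL-33. With IL-33 averaged over genotypes, limma called lower (adjusted p under 0.05) 1 basophil, mast cell or eosinophil marker, 1 epithelial marker, 1 macrophage or monocyte marker and 4 of the 13 ILC2 markers, and called higher 3 ILC2 markers, 1 macrophage or monocyte marker and 1 B cell marker. The part of any of these cells in the results was not tested. In bulk samples such as these, fewer cells of a type and less RNA per cell cannot be told apart.

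The files give FPKM and no counts, so the number of reads behind a value is unknown. From the step between values of genes under 3 FPKM, the depth of the libraries relative to WT IL-33 replicate 3 was 0.739 to 0.998 under PBS and 0.968 to 1.39 after IL-33. PBS libraries listed 12.9% to 25.3% of the tested genes at 0 and IL-33 libraries 4.29% to 6.00%, so detection was split by treatment and cannot be told apart from it. Relative depth overlapped between treatments only through *Sema6d*-/- PBS replicate 3 (0.998) and *Sema6d*-/- IL-33 replicate 2 (0.968). In the other PBS libraries it was at most 0.889. No library listed any of the 10 genes at 0. Their summed level was 4068 to 5190 FPKM in the 6 PBS libraries and 1823 to 2379 FPKM in the 6 IL-33 libraries.

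Differences were tested with limma on log2(FPKM + 1), and a gene was called at a Benjamini-Hochberg adjusted p under 0.05 over the 11395 genes. With IL-33 averaged over the genotypes, 8 of the 10 genes were called lower, against 3.07% of all genes tested, and 0 were called higher, against 5.75%. Because these genes are highly expressed, the share was also taken over the 3795 genes whose mean reached 20 FPKM, a level chosen after the values were seen, and 6.72% of those were called lower. In WT cells alone 8 were called lower, against 1.61% of all genes, and in *Sema6d*-/- cells alone 7 were, against 1.10%. The WT count was 4 without WT IL-33 replicate 1 and 5 without WT IL-33 replicate 3, and the genes called in either direction, 486 over all libraries, were 202, 243 and 230 without WT IL-33 replicates 1, 2 and 3. Array weights called 4 of the 10 genes in each genotype. The median log2 difference of the 10 genes was −1.17 in the averaged comparison, where the median of all genes tested was 0.16. Quantile normalization took the latter to 0.02 and a pseudocount of 0.1 took it to 0.35, and under either setting 8 of the 10 genes were called lower. For 7 of the 10, all of the 6 IL-33 libraries lay below all of the 6 PBS libraries, which held for 2.33% of all genes. The exceptions were *Egr2*, *Ier3* and *Ier5*, of which *Ier5* overlapped through *Sema6d*-/- PBS replicate 2 alone.

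**Figure D1:**
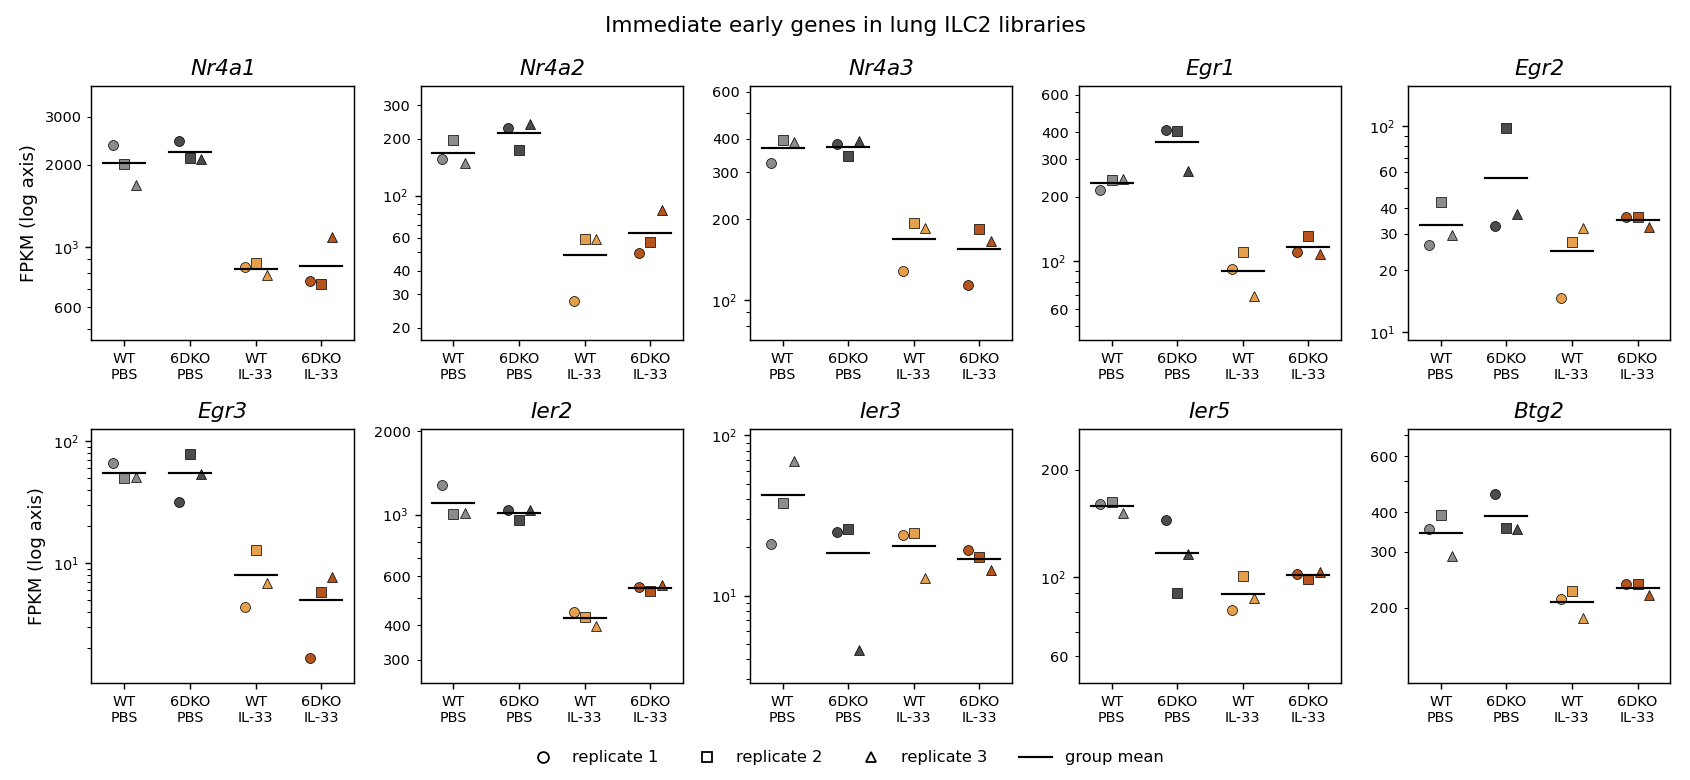
Level of each of the 10 genes in FPKM (log axis) in each of the 12 libraries, by group, with replicates 1, 2 and 3 as circles, squares and triangles and the group mean as a line. For 7 genes the 6 IL-33 libraries lie below the 6 PBS libraries, and *Egr2*, *Ier3* and *Ier5* overlap.

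*Nr4a1*, which encodes a nuclear receptor also known as a reporter of antigen receptor signalling, lies on chr15:101254269-101274795 (GRCm38, plus strand). In PBS libraries it was at 2367, 2023 and 1685 FPKM in WT cells and at 2437, 2119.9 and 2107 FPKM in *Sema6d*-/- cells. In IL-33 libraries it was at 842, 871 and 787 FPKM in WT cells and at 748, 732 and 1085 FPKM in *Sema6d*-/- cells. Each IL-33 library lay below each PBS library, and within a treatment the genotypes overlapped. Its rank by level was 44 to 77 in the PBS libraries and 121 to 169 in the IL-33 libraries. Averaged over genotypes, *Nr4a1* differed by a log2 fold change of −1.33 (SE 0.12, limma adjusted p 3.30e-05). The change was −1.27 in WT cells (95% interval −1.62 to −0.91) and −1.40 in *Sema6d*-/- cells (−1.75 to −1.04), and both stayed called under every alternative setting run. The latter was −1.58 without *Sema6d*-/- IL-33 replicate 3.

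*Nr4a2*, whose product is best known for its role in dopamine neurons, lies on chr2:57106830-57124003 (minus strand). With PBS it stood at 156, 198 and 148 FPKM in WT cells and at 229, 174 and 238 FPKM in *Sema6d*-/- cells. After IL-33 the values were 27.7, 58.6 and 58.7 FPKM in WT cells and 49.4, 57.0 and 84.2 FPKM in *Sema6d*-/- cells. No IL-33 library reached the lowest PBS library, and the genotypes overlapped within each treatment. Its averaged log2 fold change was −1.80 (SE 0.22, limma adjusted p 0.00034). In *Sema6d*-/- cells the change of −1.76 was called (adjusted p 0.0108), but not without *Sema6d*-/- IL-33 replicate 1 (0.0565) or 2 (0.0551), and over all 18 alternatives the adjusted p (limma) ran from 0.00422 to 0.0637. Without *Sema6d*-/- IL-33 replicate 3 the change was −1.98. In WT cells the change of −1.84 stayed called in all 18.

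*Nr4a3*, the remaining receptor of the family, lies on chr4:48045153-48086447 (plus strand). Under PBS it was at 324, 394 and 389 FPKM in WT cells and at 381, 344 and 392 FPKM in *Sema6d*-/- cells. After IL-33 it stood at 128, 193 and 186 FPKM in WT cells and at 114, 184 and 165 FPKM in *Sema6d*-/- cells. The treatments did not overlap and the genotypes did, in both treatments. Averaged over genotypes, its log2 fold change was −1.21 (SE 0.15, limma adjusted p 0.000372). The change in WT cells was −1.14 (adjusted p 0.0109) and ended just above the threshold without WT IL-33 replicate 1 (−0.95, 0.0517), within a range of adjusted p (limma) from 0.00740 to 0.0867 over its 18 alternatives. In *Sema6d*-/- cells it was −1.29 (limma adjusted p 0.00782), a call that held in 17 of 18 alternatives and was lost with array weights (limma adjusted p 0.0632, in a range from 0.00514).

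The shares of the receptors overlapped between treatments while their total fell. *Nr4a1* made up 75.8% to 83.1% of the summed NR4A level in FPKM in the PBS libraries and 75.2% to 84.4% in the IL-33 libraries. *Nr4a3* held 11.4% to 17.5% and 12.4% to 18.9%. The share of *Nr4a2* was 5.47% to 8.69% under PBS and 2.77% to 6.31% after IL-33. The summed level of the receptors was 2222 to 3048 FPKM under PBS and 911 to 1335 FPKM after IL-33.

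*Egr1* encodes a zinc finger factor induced through the MAP kinase pathway and serum response factor. In PBS libraries it was at 216, 239 and 243 FPKM in WT cells and at 412, 407 and 266 FPKM in *Sema6d*-/- cells. After IL-33 the levels were 92.1, 111 and 69.2 FPKM in WT cells and 111, 132 and 109 FPKM in *Sema6d*-/- cells. The treatments did not overlap, and under PBS each *Sema6d*-/- library lay above each WT library. Averaged over genotypes, *Egr1* differed by a log2 fold change of −1.49 (SE 0.15, limma adjusted p 0.000116). The change was −1.37 in WT cells (95% interval −1.85 to −0.90) and −1.60 in *Sema6d*-/- cells (−2.07 to −1.12), and both stayed called in all 18 alternatives.

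*Egr2*, which in T cells takes part in anergy, lies on chr10:67535475-67542188 (plus strand). Its PBS levels were 26.6, 43.1 and 29.7 FPKM in WT cells and 32.6, 98.2 and 37.6 FPKM in *Sema6d*-/- cells. The IL-33 levels were 14.7, 27.4 and 32.0 FPKM in WT cells and 36.1, 36.1 and 32.5 FPKM in *Sema6d*-/- cells. Treatments overlapped in both genotypes, and 1 library, *Sema6d*-/- PBS replicate 2, was more than 2-fold above every other. Its averaged log2 fold change of −0.47 (95% interval −1.12 to 0.18) was not called (limma adjusted p 0.388), and without that library it was −0.23. In *Sema6d*-/- cells the change went from −0.49 to −0.01 without it. The WT change was −0.45 (95% interval −1.37 to 0.47) and ran from −0.66 to −0.13 with 1 library left out, the latter without WT IL-33 replicate 1.

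*Egr3*, which acts beside *Egr2* in T cells, lies on chr14:70077203-70082614 (plus strand). With PBS it stood at 65.8, 49.7 and 50.5 FPKM in WT cells and at 31.9, 79.3 and 54.4 FPKM in *Sema6d*-/- cells. After IL-33 its level was 4.33, 12.7 and 6.84 FPKM in WT cells and 1.67, 5.77 and 7.63 FPKM in *Sema6d*-/- cells. The lowest PBS library held more than 2-fold the level of the highest IL-33 library. At −3.02 (SE 0.36, limma adjusted p 0.00034), the averaged log2 fold change of *Egr3* was the largest of the 10 genes (−2.87 without *Sema6d*-/- PBS replicate 2), and the pseudocount of 1 understates a change to such low levels. In WT cells the change of −2.75 (adjusted p 0.0114) was not called without WT IL-33 replicate 1 (0.0591) or 3 (0.0506), and the adjusted p (limma) ran from 0.00815 to 0.0808 over its 18 alternatives. In *Sema6d*-/- cells it was −3.29, and −2.99 without *Sema6d*-/- PBS replicate 2 (limma adjusted p 0.0196).

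Shares within the EGR family overlapped between treatments for all 3 genes, for *Egr2* through *Sema6d*-/- PBS replicate 2 alone. *Egr3* was 6.70% to 21.4% of the summed EGR level in FPKM under PBS and 1.13% to 8.43% after IL-33. *Egr2* was 6.85% to 16.8% under PBS, the highest in that library, and 13.2% to 29.7% after IL-33, above the other 5 PBS libraries. *Egr1* held the largest share throughout, at 69.6% to 86.5% under PBS and 64.0% to 82.9% after IL-33.

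*Ier2*, a gene of 1 exon whose nuclear product has few settled functions, lies on chr8:84661331-84662852 (minus strand). Under PBS it was at 1274, 1009 and 1012 FPKM in WT cells and at 1039, 955 and 1039.8 FPKM in *Sema6d*-/- cells. After IL-33 it was at 445, 427 and 398 FPKM in WT cells and at 549.9, 531 and 558 FPKM in *Sema6d*-/- cells. The treatments lay far apart, and after IL-33 each *Sema6d*-/- library was above each WT library. Averaged over genotypes, its log2 fold change was −1.13 (SE 0.08, limma adjusted p 1.09e-05), the smallest adjusted p of the 10 genes. The change was −1.37 in WT cells (limma adjusted p 8.03e-05) and −0.89 in *Sema6d*-/- cells (0.00212), and was called in both under all 18 alternatives.

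*Ier3*, whose product modulates cell death and NF-κB signalling, lies on chr17:35821684-35822923 (plus strand). Its PBS levels were 21.0, 37.7 and 68.6 FPKM in WT cells and 25.0, 26.0 and 4.58 FPKM in *Sema6d*-/- cells. The IL-33 levels were 23.7, 24.6 and 12.9 FPKM in WT cells and 19.2, 17.3 and 14.4 FPKM in *Sema6d*-/- cells. Both the highest and the lowest value of the 12 were PBS libraries, and the treatments overlapped in both genotypes. Its averaged log2 fold change of −0.37 (95% interval −1.30 to 0.56) was not called (limma adjusted p 0.661), and with 1 library left out it ran from −0.74 (without *Sema6d*-/- PBS replicate 3) to −0.16 (without WT PBS replicate 3). In WT cells the change was −0.92 (95% interval −2.23 to 0.40) and was not called (limma adjusted p 0.482). It ran from −1.33 to −0.50 with 1 library left out. In *Sema6d*-/- cells the sign rested on *Sema6d*-/- PBS replicate 3, with a change of 0.18 over all libraries and −0.57 without it.

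*Ier5*, another gene of 1 exon, whose product acts on heat shock factor, lies on chr1:155096361-155099636 (minus strand). In PBS libraries it was at 160.4, 163 and 151 FPKM in WT cells and at 145, 90.4 and 116 FPKM in *Sema6d*-/- cells. In IL-33 libraries it was at 81.0, 101 and 87.7 FPKM in WT cells and at 102, 98.7 and 103 FPKM in *Sema6d*-/- cells. The WT treatments did not overlap, whereas in *Sema6d*-/- cells PBS replicate 2 lay below all 3 IL-33 libraries. The log2 fold change was −0.82 in WT cells (limma adjusted p 0.0347) and −0.18 in *Sema6d*-/- cells (95% interval −0.60 to 0.24). With 1 library left out, the latter ran from −0.35 (without *Sema6d*-/- PBS replicate 2) to −0.0176. The difference between the genotypes, tested as an interaction, was 0.63 (95% interval 0.04 to 1.23) and was not called (limma adjusted p 0.880). Averaged over genotypes the change was −0.50 (adjusted p 0.0421), close to the threshold, with adjusted p values (limma) from 0.00881 to 0.101 over its 17 alternatives. It was not called without WT PBS replicate 1 or 2, *Sema6d*-/- PBS replicate 3, or any 1 of the 6 IL-33 libraries (limma adjusted p 0.0554 to 0.101), and without *Sema6d*-/- PBS replicate 2 it was −0.58 (0.00881). In WT cells alone the call was lost without WT PBS replicate 1 or 2 or any 1 of the 6 IL-33 libraries (limma adjusted p 0.0558 to 0.134).

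Within the IER genes, *Ier2* made up 82.2% to 89.6% of the summed level in FPKM under PBS and 77.3% to 82.6% after IL-33. *Ier5* rose from 8.44% to 13.5% of that sum under PBS to 14.7% to 18.2% after IL-33, although its own level was lower in both group means.

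*Btg2*, which slows proliferation and recruits the CCR4-NOT deadenylase to messenger RNA, lies on chr1:134075170-134079120 (minus strand). With PBS it stood at 353, 391 and 291 FPKM in WT cells and at 458, 356 and 354 FPKM in *Sema6d*-/- cells. After IL-33 it was at 213, 225 and 186 FPKM in WT cells and at 237, 237 and 219 FPKM in *Sema6d*-/- cells. The treatments did not overlap, and the genotypes did within each treatment. Averaged over genotypes, *Btg2* differed by a log2 fold change of −0.73 (SE 0.11, limma adjusted p 0.00178), and this call held in all 17 alternatives. Within a genotype the call was less firm. In WT cells the change of −0.72 (adjusted p 0.0261) was not called without WT PBS replicate 1 or 2 or any 1 WT IL-33 library (limma adjusted p 0.0596 to 0.121). In *Sema6d*-/- cells the change of −0.74 (adjusted p 0.0315) was not called without *Sema6d*-/- PBS replicate 1, WT IL-33 replicate 1 or any 1 *Sema6d*-/- IL-33 library (limma adjusted p 0.0514 to 0.123).

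**Figure D2:**
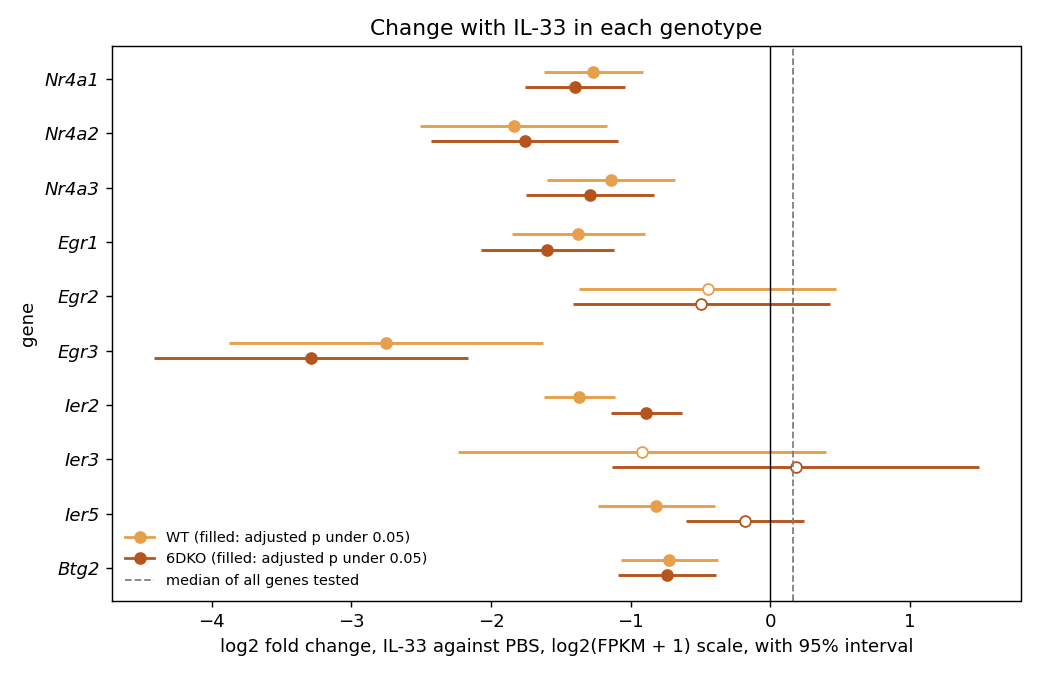
Log2 fold change of each gene, IL-33 against PBS, in WT and *Sema6d*-/- cells, with 95% intervals from limma, filled where the adjusted p is under 0.05, and the median of all genes tested as a dashed line. Across the 10 genes, *Ier5* is called in WT cells alone, and *Egr2* and *Ier3* in neither genotype.

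Between the genotypes, 0 of the 10 genes were called by limma under PBS, against 0.579% of all genes tested, and 2 had an unadjusted p under 0.05, as had 1475 of the 11395. After IL-33, 0 were called, against 0.00878%, and 1 had an unadjusted p under 0.05, as had 209 of all genes. For the interaction of genotype and treatment limma called 0, against 0.0176%, and 2 were under 0.05 unadjusted, beside 635 of all genes. Under PBS, the median log2 difference of the 10 genes between *Sema6d*-/- and WT cells was 0.08, with 0.00 for all genes, and after IL-33 it was 0.17, with 0.01 for all genes. The genotypes did not overlap for 2 genes under PBS, against 8.63% of all genes, and for 2 after IL-33, against 14.2%. Neither share is far from its background at 10 genes.

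Under PBS the non-overlapping genes were *Egr1*, higher in *Sema6d*-/- cells by a log2 difference of 0.61 (95% interval 0.13 to 1.08, limma adjusted p 0.287), and *Ier5*, lower by a difference of −0.45 (−0.88 to −0.03, 0.347). Without *Sema6d*-/- PBS replicate 2 these were 0.51 and −0.28. *Ier3* was lower on average under PBS, at −1.31 (95% interval −2.62 to 0.01), and at −0.56 without *Sema6d*-/- PBS replicate 3. After IL-33 the non-overlapping genes were *Ier2*, higher in *Sema6d*-/- cells by 0.37 (95% interval 0.11 to 0.62, limma adjusted p 1), and *Egr2*, higher by 0.55 (−0.37 to 1.47), or 0.23 without WT IL-33 replicate 1. The *Ier2* difference was called with array weights, which weight each library by its spread (limma adjusted p 0.0341), and in no other of its 18 alternatives. As an interaction, *Ier2* fell less in *Sema6d*-/- cells, by 0.48 (95% interval 0.12 to 0.84), which was not called (limma adjusted p 0.851). For *Egr2* under PBS the difference went from 0.59 to 0.11 without *Sema6d*-/- PBS replicate 2.

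The other genotype differences had these 95% intervals, and none was called by limma. *Nr4a1* differed by 0.14 (−0.21 to 0.50) under PBS, from 0.0185 to 0.26 with 1 library left out, and by 0.01 (−0.34 to 0.37) after IL-33, or −0.17 without *Sema6d*-/- IL-33 replicate 3. *Nr4a2* differed by 0.35 (−0.32 to 1.02) and 0.43 (−0.24 to 1.10), the latter from 0.0769 (without WT IL-33 replicate 1) to 0.61 with 1 library left out, and 0.21 without *Sema6d*-/- IL-33 replicate 3. For *Nr4a3* the differences were 0.02 (−0.44 to 0.48) and −0.14 (−0.60 to 0.32). For *Nr4a2* the intervals thus leave room for a genotype difference of up to 1.10. *Btg2* differed by 0.17 (−0.18 to 0.52) under PBS and by 0.16 (−0.19 to 0.51) after IL-33, from 0.0515 to 0.27 and from 0.0783 to 0.22 with 1 library left out. *Ier2* differed by −0.11 (−0.37 to 0.14) under PBS, and by −0.000539 without WT PBS replicate 1. After IL-33 *Egr1* differed by 0.38 (−0.09 to 0.86), *Ier3* by −0.21 (−1.52 to 1.11) and *Ier5* by 0.18 (−0.24 to 0.60), and with 1 library left out these ran from 0.20 to 0.54, −0.49 to −0.0516 and 0.11 to 0.26. *Egr3* had the widest bounds among the genes called with IL-33, at −0.08 (−1.21 to 1.04), or −0.39 without *Sema6d*-/- PBS replicate 2, and −0.63 (−1.75 to 0.50), the latter from −0.97 (without *Sema6d*-/- IL-33 replicate 3) to −0.12 (without *Sema6d*-/- IL-33 replicate 1) with 1 library left out.

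In the order of group means, *Sema6d*-/- PBS came first for *Nr4a1*, *Nr4a2*, *Nr4a3*, *Egr1*, *Egr2* and *Btg2*, and WT PBS for *Egr3*, *Ier2*, *Ier3* and *Ier5*. The first and second groups overlapped in their libraries for all of these except *Egr1* and *Ier5*. The mean of *Egr1* was 361 ± 83.1 FPKM (SD, n = 3) in *Sema6d*-/- PBS and 233 ± 14.8 FPKM in WT PBS. That of *Ier5* was 158 ± 6.37 FPKM in WT PBS and 117 ± 27.1 FPKM in *Sema6d*-/- PBS. WT IL-33 was the lowest group for *Nr4a1*, *Nr4a2*, *Egr1*, *Egr2*, *Ier2*, *Ier5* and *Btg2*, and *Sema6d*-/- IL-33 for *Nr4a3*, *Egr3* and *Ier3*. The lowest 2 groups overlapped for 9 of the 10 genes, with *Ier2* the exception, at 423 ± 24.0 FPKM in WT IL-33 and 546 ± 14.2 FPKM in *Sema6d*-/- IL-33. Under PBS the median SD of the 10 genes on the log2 scale was 0.22 in WT and 0.29 in *Sema6d*-/- cells, against 0.66 and 0.70 over all genes tested. After IL-33 it was 0.33 and 0.17, against 0.29 and 0.28. The set of all genes reaches down to a mean of 0.5 FPKM and was not matched to the 10 genes by level.

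Genes that work with these were taken as lists. Over all genes tested, 3.07% were called lower and 5.75% higher with IL-33 averaged over genotypes. Of 8 AP-1 genes, another family of factors of the early response, 6 were called lower with IL-33 averaged over genotypes, with a median log2 fold change of −1.15. *Atf3* was at 746 to 1759 FPKM under PBS and 177 to 432 FPKM after IL-33, a log2 fold change of −1.95 (limma adjusted p 5.50e-05). *Fos* went from 1935 to 4169 FPKM under PBS to 934 to 1287 FPKM, a change of −1.29 (limma adjusted p 2.17e-05). *Fosb* (−1.24) and *Jun* (−1.22) were the others with the largest changes, and all of these held in all 17 alternatives. Under PBS, *Jun* was at 769, 657 and 927 FPKM in WT cells and at 494, 348 and 381 FPKM in *Sema6d*-/- cells. The genotypes did not overlap, and *Jun* was called lower by limma, by −0.94 (adjusted p 0.0363), as the only gene of these lists called between genotypes. That call held in 3 of 18 alternatives, with an adjusted p (limma) of 0.0138 to 0.717. It was lost without WT PBS replicate 1 or 3, *Sema6d*-/- PBS replicate 2 or 3, or any 1 of the 6 IL-33 libraries (0.0521 to 0.0776). With array weights the adjusted p (limma) was 0.464, and with the PBS libraries alone it was 0.717.

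Of 27 other early response genes, 12 were called lower and 1 higher in the averaged comparison, with a median of −0.66. *Zfp36* (−1.54), *Zfp36l1* (−1.51), *Nfkbiz* (−1.36) and *Klf4* (−1.11) had the largest changes among those called, each called in all 17 alternatives. The gene called higher was *Rgs1*, at 1315 to 2365 FPKM under PBS and 2837 to 3424 FPKM after IL-33, a log2 fold change of 0.78 (limma adjusted p 0.00196). In WT cells 13 of the 27 were called lower, against 1.61% of all genes tested. In *Sema6d*-/- cells 4 were called lower, against 1.10%, and 1 higher, as were 199 of the 11395 genes tested. For the interaction limma called 0 of the 27, and 8 had an unadjusted p under 0.05, as had 635 of the 11395.

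Among 6 relatives of the 10 genes (*Egr4*, *Ier5l*, *Btg1*, *Btg3*, *Tob1* and *Tob2*), 1 was called lower and the median was −0.04. *Tob2*, an antiproliferative relative of *Btg2*, was at 102 to 149.8 FPKM under PBS and 50.2 to 60.4 FPKM after IL-33 (log2 fold change −1.10, limma adjusted p 0.000565). Of 9 partner proteins (NAB corepressors, RXR receptors, the CCR4-NOT subunits and *Prmt1*), 1 was called lower, *Cnot6l* at −1.18 (limma adjusted p 0.0462), and the median was −0.21. The *Cnot6l* call held in 4 of 17 alternatives and, of the 12 libraries, without WT PBS replicate 3, *Sema6d*-/- PBS replicate 1 or *Sema6d*-/- IL-33 replicate 1 alone (limma adjusted p 0.0208 to 0.116 over the alternatives). Of 23 genes of upstream signalling (serum response factor and its partners, CREB, MEF2, NFAT, calcineurin and MAP kinases), limma called 0, with 1 at an unadjusted p under 0.05 and a median of 0.08. Of 8 heat shock genes, where heat shock factor acts, 1 was called lower, *Dnaja1* at −0.49 (limma adjusted p 0.0433), and the median was −0.11. The *Dnaja1* call held in 6 of 17 alternatives and, of the 12 libraries, without WT PBS replicate 2 or 3 or *Sema6d*-/- PBS replicate 3 alone (limma adjusted p 0.0312 to 0.110 over the alternatives).

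Of 12 genes that EGR factors regulate in T cells, 11 were tested, 2 were called higher and 1 lower, and the median was −0.21. *Rnf128* was at 229 to 544 FPKM under PBS and 193 to 283 FPKM after IL-33, overlapping, with a log2 fold change of −0.88 (limma adjusted p 0.00933). *Dgka* was higher after IL-33, with a median of 93.4 FPKM against 63.4 FPKM under PBS and no overlap, a change of 0.56 (limma adjusted p 0.0272). It held in 11 of 17 alternatives and was lost without WT IL-33 replicate 1 or 2 or *Sema6d*-/- IL-33 replicate 1 or 3 (limma adjusted p 0.0144 to 0.0778 over the alternatives). *Ndrg1* was listed at 0 to 11.6 FPKM under PBS and at 6.39 to 17.4 FPKM after IL-33, a change of 2.74 (limma adjusted p 0.0237), which ran from 2.42 to 4.73 over the alternatives, the latter with a pseudocount of 0.1. This call held in 10 of 17 alternatives and was lost without WT PBS replicate 1, *Sema6d*-/- PBS replicate 2, WT IL-33 replicate 2 or 3, or any 1 *Sema6d*-/- IL-33 library (limma adjusted p 0.0022 to 0.0677 over the alternatives).

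As a description of likeness, the Pearson r of log2(FPKM + 1) over the 12 libraries was taken between 4 of the genes and the 5582 others whose mean reached 10 FPKM. These libraries share the treatment split, so r was also taken after the group means were removed. *Usp38* (0.961), *Cxcl1* (0.961) and *Tmem176a* (0.957) were most like *Nr4a1*, with 0.611, 0.219 and −0.126 after removal. *Spry2* (0.965), *1810011H11Rik* (0.964) and *Tbc1d9b* (0.963) were most like *Egr1*, with 0.555, 0.788 and 0.539. For *Ier2* these were *Cebpb* (0.981), *Bmp2* (0.975) and *Nfkbiz* (0.974), with 0.798, −0.114 and 0.616. *Cd200r1* (0.957), *Krt80* (0.949) and *March7* (0.947) were most like *Btg2*, with 0.859, 0.644 and 0.743. None of these was itself 1 of the 10 genes.

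Promoter sequences, the 250 bases before a start of transcription, were found for 7 of the 10 genes in RefSeq (GRCm38.p6). Annotated exons overlapped 152 of these bases for *Nr4a3*, 29 for *Ier3* and up to 61 for *Egr2*, so part of these sequences lies within the gene. The *Nr4a1* sequence lies inside the span given for its gene, as do those of the later *Egr2* starts. *Egr1*, *Egr3* and *Ier2* had none in the table. Motifs were searched on both strands, and their share is of 32851 promoters. The CArG box, the name for the site of serum response factor, was in 1 of the 7, *Egr2*, upstream of 4 of its 5 starts. It was in 1.47% of promoters and 1.62% of genes. The sequences of *Egr2* starts 3, 4 and 5 overlap and share 1 box. The full cyclic AMP response element TGACGTCA was in *Btg2* alone (1.55%). The EGR site GCGNGGGCG was in *Nr4a1*, *Nr4a2* and *Btg2* (4.70%). Neither the NR4A site AAAGGTCA (1.34%) nor the AP-1 site TGANTCA (6.75%) was in any of the 7. The half-site TGACG, which was added after the sequences had been read and which lies within the full element, was in 5 of the 7, *Nr4a1*, *Nr4a2*, *Nr4a3*, *Egr2* and *Btg2* (17.8%). *Nr4a1*, *Nr4a2* and *Nr4a3* held 4 each, a number that 0.137% of promoters reach, and *Btg2* held 2, which both overlap its full element. Because the half-site was picked from these same sequences, its shares are no test of rarity. G and C made up 74.4%, 80.0% and 63.6% of the *Nr4a1*, *Nr4a2* and *Nr4a3* sequences. No share given here was matched for this. A match is a description of letters and not of a bound site.

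Sequences are shown for 2 receptors with 4 half-sites each, for *Btg2* with the full element and for *Ier5*, whose response was the least firm of the genes called and which held none of the 6 motifs. They are *Nr4a1* at chr15:101266596-101266845 (plus strand), *Nr4a2* at chr2:57124004-57124253 (minus), *Btg2* at chr1:134079156-134079405 (minus) and *Ier5* at chr1:155099637-155099886 (minus), from RefSeq with GRCm38.p6, written from 5′ to 3′ on the strand of the gene. Capitals mark the half-sites, the full element and the EGR site, on either strand.
Nr4a1: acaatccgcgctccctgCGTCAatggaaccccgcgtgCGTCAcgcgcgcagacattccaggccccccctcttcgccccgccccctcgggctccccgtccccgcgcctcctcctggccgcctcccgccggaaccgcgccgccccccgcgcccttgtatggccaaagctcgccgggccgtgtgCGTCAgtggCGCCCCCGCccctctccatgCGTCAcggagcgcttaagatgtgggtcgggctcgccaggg
Nr4a2: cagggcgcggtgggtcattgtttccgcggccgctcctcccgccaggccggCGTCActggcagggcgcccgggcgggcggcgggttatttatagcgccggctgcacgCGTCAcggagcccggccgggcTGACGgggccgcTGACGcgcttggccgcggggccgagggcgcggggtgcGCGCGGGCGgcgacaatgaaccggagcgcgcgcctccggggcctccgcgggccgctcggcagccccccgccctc
Btg2: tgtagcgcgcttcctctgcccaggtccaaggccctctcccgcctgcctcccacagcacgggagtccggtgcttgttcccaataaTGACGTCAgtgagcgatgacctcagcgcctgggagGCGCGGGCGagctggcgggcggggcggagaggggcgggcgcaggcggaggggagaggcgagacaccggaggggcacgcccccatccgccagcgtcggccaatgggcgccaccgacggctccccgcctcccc
Ier5: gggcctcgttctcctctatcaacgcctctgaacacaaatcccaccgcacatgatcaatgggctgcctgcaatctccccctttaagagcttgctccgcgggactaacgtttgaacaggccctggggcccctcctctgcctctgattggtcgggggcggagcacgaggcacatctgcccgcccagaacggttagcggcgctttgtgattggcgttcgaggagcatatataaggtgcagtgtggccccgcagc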

How the data were processed

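The deposited FPKM of 12 libraries were used as given. Upstream processing in the labels was TopHat2 2.1.1 with Bowtie2 and Cuffdiff 2.2.1 on mm10, whereas the study's methods name another TopHat release and Cuffnorm, and the gene annotation was not given. Values were taken as log2(FPKM + 1). Genes whose mean reached 0.5 FPKM were fitted in limma 3.58.1 (R 4.3.3) with the 4 group means, 8 residual degrees of freedom and a trended prior, two-sided, and p-values were adjusted over 11395 genes. The members, pathway lists and marker lists were chosen with earlier results of these data known. Named from each list were up to 4 called genes with the largest averaged change, any gene called between genotypes, and *Rgs1*, chosen after its values were seen. For likeness, the 3 genes of highest r were named. Positions came from GENCODE vM21 and promoters from RefSeq. Figures were drawn with Python 3.11.15 and matplotlib 3.10.9.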

Additional observations from a re-analysis of the deposited data

How the results depend on the processing

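Changes of the 10 genes and of the named list genes, and the counts of genes called, were recomputed with a pseudocount of 0.1, no filter, quantile normalization, array weights, a replicate block, and without each library in turn. Only the groups compared were used as well for the 4 comparisons of 2 groups, and not for the averaged comparison or the interaction. Marker calls, list counts and medians, shares and likeness were not recomputed. Of 1060 alternative values of the 10 genes, 986 kept their direction and side of the threshold, 44 lost a call, 1 gained a call and 29 changed sign. In the averaged comparison 7 genes kept their call in all 17 alternatives, and *Ier5* in 6.

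Array weights called 4 of the 10 genes in WT cells, 4 in *Sema6d*-/- cells and 1 between genotypes after IL-33. With 8 genes called in WT cells over all libraries, 4 to 8 were called when 1 was left out (4 without WT IL-33 replicate 1, 5 without replicate 3).

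Genes called in all went from 486 to between 202 and 691 in WT cells with 1 library left out, and were 202, 243 and 230 without WT IL-33 replicates 1, 2 and 3. In *Sema6d*-/- cells 324 became 122 to 476, with 137, 122 and 143 without *Sema6d*-/- IL-33 replicates 1, 2 and 3, and in the averaged comparison 1005 became 660 (without WT IL-33 replicate 3) to 1244. Between genotypes under PBS, 66 became 33 with no filter, 43 with quantile normalization, 1 with array weights, 1 with only the groups compared, 15 with the replicate block, and 20 to 213 with 1 library left out. After IL-33, 1 became 2 with a pseudocount of 0.1, 0 with quantile normalization, 55 with array weights, 0 with only the groups compared, and 0 to 3 with 1 library left out. For the interaction, 2 became 5 with a pseudocount of 0.1, 1 with the replicate block, and 0 to 25 with 1 library left out. The main fit shared 1 spread per gene over the 4 groups. The median SD of all genes was 0.66 and 0.70 under PBS and 0.29 and 0.28 after IL-33. The p-values of PBS comparisons thus rest in part on the smaller spread of the IL-33 libraries. The cause of the changed counts was not tested.

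Changes of sign, none of them in a called value, were these. With array weights, *Egr3* between genotypes under PBS was 0.0464, *Nr4a1* after IL-33 was −0.0401 and the interaction of *Nr4a2* was −0.0770. With quantile normalization the interaction of *Btg2* was 0.0445. With 1 library left out, *Ier3* in *Sema6d*-/- cells ran from −0.57 to 0.57. Between genotypes under PBS, *Nr4a3* ran from −0.0737 to 0.0729 and *Egr3* from −0.39 to 0.25. After IL-33, *Nr4a1* ran from −0.17 to 0.11 and *Nr4a3* from −0.32 to 0.0685. The interaction ran from −0.27 to 0.26 for *Nr4a2*, −0.34 to 0.0517 for *Nr4a3*, −0.37 to 0.44 for *Egr2* and −0.11 to 0.10 for *Btg2*. The cause was not tested.

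The values showed no pairing of the samples by replicate number, and whether samples shared a day or a batch was not tested. Between 18 same-numbered pairs, r after removing group means was −0.0468 to 0.0448, and −0.0731 to 0.0530 between others. With the replicate block, 7 of the 10 genes were called in each of WT cells, *Sema6d*-/- cells and the averaged comparison. Without counts, the precision that depth gives each value is unknown.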
